A study of Mus musculus with 16 samples.

Results

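Cell cycle and proliferation genes were followed in whole liver of mice given a carcinogen or vehicle and a control or fat-rich diet. The set holds 42 genes chosen by symbol, and all 42 were among the 30463 genes of the authors' deposited table. It comprises 13 genes of the G1/S transition and S phase, 28 genes of G2 and mitosis and the G1 cyclin gene Ccnd1. All mice were wild-type C57BL/6N and were 14 weeks old at collection. They had been injected with vehicle or diethylnitrosamine (DEN), a liver carcinogen, at 2 weeks of age. From week 6 they either stayed on control diet or ate a diet labelled 60% high fat, which gives 4 groups of 4 livers (each injection combined with each diet). Neither the sex of the mice nor the vehicle is given in the labels used here.

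All values come from a single comparison of the authors, whose sides the table does not name. A negative log2 fold change is therefore described as higher on the negative side and a positive one as higher on the positive side. The 16 columns of single libraries carry codes that match no sample label and were not used, so no value per mouse is given, and how many livers carry a difference was not tested. Each log2 fold change stands with its standard error (SE) from the authors' deposited table, and a gene is called at an adjusted p below 0.05 there. Intervals are 95% normal intervals computed from that SE. The labelled tissue showed in its markers, since the mean normalized count of albumin, Alb, was 1079860 per the authors' deposited table.

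Dividing cells copy their DNA in S phase and separate the copies in mitosis. E2F factors, released when cyclin and CDK complexes phosphorylate the retinoblastoma family, switch on the S phase genes. A later wave of genes for G2 and mitosis is held down in resting cells by the DREAM complex and is switched on by B-MYB and FOXM1 when cells commit to division. The adult liver is mostly made of resting hepatocytes, which re-enter the cycle after loss of tissue, and hepatocytes can also copy their DNA without dividing, which leaves them polyploid. In bulk tissue, fewer dividing cells and less RNA per cell cannot be told apart.

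The promoters of the genes are shown first, because the waves are known for different DNA elements. Promoter sequences were taken from RefSeq on GRCm38.p6, and 34 of the 42 genes had one. Each stretch below runs 5′ to 3′ on the gene's strand from 220 bases before to 30 bases after the annotated start. Capitals mark 3 kinds of match on either strand. The first is the cell cycle homology region (CHR) bound by the DREAM and B-MYB complexes, searched as TTTGAA. The second is the NF-Y box, searched as CCAAT. The third is the E2F motif, searched as TTTCCCGC or TTTCGCGC or TTTGCCGC or TTTGGCGC. E2F words on opposite strands can overlap each other, as in Mcm5 and Mcm6. Mki67, Top2a and Ccnb2 were called members of the mitotic group, Cdk1 holds all 3 motifs, and Mcm5 and Mcm6 stand for the S phase group.
Mki67 (chr7:135716350-135716599, minus strand): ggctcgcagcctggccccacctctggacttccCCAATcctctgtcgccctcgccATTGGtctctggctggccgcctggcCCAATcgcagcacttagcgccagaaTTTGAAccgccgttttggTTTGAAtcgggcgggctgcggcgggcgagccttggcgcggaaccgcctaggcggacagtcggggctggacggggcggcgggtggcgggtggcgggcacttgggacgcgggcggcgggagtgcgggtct
Top2a (chr11:99024160-99024409, minus strand): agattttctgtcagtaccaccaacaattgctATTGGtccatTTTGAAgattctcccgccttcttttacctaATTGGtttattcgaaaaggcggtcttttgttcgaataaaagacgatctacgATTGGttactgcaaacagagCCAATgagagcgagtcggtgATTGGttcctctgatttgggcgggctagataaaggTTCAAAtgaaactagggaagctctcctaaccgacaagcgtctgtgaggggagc
Ccnb2 (chr9:70421525-70421774, minus strand): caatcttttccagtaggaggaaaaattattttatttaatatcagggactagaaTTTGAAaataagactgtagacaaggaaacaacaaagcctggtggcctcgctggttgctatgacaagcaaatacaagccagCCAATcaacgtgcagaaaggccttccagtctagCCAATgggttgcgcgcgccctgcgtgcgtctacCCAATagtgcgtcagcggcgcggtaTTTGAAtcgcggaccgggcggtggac
Cdk1 (chr10:69352883-69353132, minus strand): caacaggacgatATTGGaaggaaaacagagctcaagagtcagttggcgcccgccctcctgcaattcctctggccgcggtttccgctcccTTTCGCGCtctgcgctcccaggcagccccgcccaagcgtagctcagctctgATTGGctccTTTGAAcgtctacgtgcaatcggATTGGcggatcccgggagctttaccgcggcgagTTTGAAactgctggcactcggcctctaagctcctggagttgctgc
Mcm5 (chr8:75109289-75109538, plus strand): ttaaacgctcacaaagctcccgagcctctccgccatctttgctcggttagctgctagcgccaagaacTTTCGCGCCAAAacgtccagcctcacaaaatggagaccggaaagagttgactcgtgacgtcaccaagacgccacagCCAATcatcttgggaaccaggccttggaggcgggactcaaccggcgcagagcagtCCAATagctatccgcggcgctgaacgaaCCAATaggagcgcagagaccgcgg
Mcm6 (chr1:128359676-128359925, minus strand): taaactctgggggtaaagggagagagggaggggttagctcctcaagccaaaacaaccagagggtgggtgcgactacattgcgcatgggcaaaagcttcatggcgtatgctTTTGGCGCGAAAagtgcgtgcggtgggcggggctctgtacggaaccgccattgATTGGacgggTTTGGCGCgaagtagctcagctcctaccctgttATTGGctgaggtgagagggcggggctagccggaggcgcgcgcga

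A CHR match lay within the 250 bases before and 50 bases after the start in 16 of 23 G2 and mitosis members with a promoter (69.6%). The same window held one in 1 of 11 S phase members (Mcm2) and in 20.2% of all 27025 genes with a promoter. In 15 of the 16 mitotic genes a match lay within 50 bases of the start on either side, the exception being Mki67, whose matches begin at positions -116 and -98. An E2F match was found in 4 of 11 S phase members (Mcm3, Mcm5, Mcm6 and Mcm7), in 1 of 23 mitotic members (Cdk1) and in 2.61% of all genes. Among the 11512 tested genes with a promoter, E2F was found in 4.35% and CHR in 15.1%. NF-Y boxes were frequent in both groups, at 82.6% of mitotic and 63.6% of S phase members beside 41.1% of all genes. In genes of the same phases outside the set, CHR was found in 63.8% of 58 other mitotic genes and 22.2% of 45 other S phase genes, and E2F in 12.1% and 42.2%. A match is a run of letters and was not shown to be bound in these livers.

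**Figure D1:**
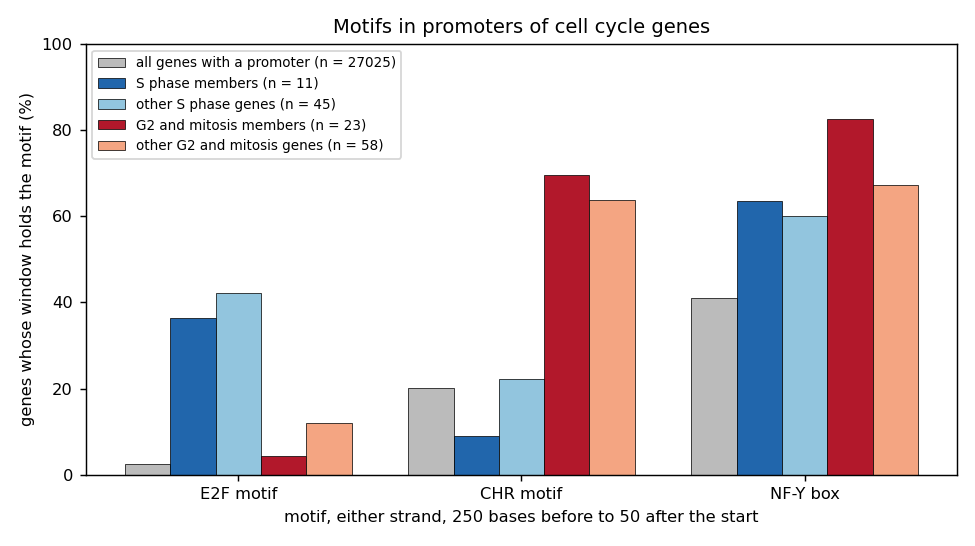
Share of genes (vertical axis, percent) whose window of 250 bases before to 50 after the start holds each motif (horizontal axis), for all genes with a promoter and for S phase and mitotic genes inside and outside the set of 42. CHR is at 69.6% in mitotic members against 9.09% in S phase members, and E2F at 36.4% in S phase members against 4.35% in mitotic ones.

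Of the genes of G2 and mitosis 11 were higher on the negative side of the comparison, while no member gene of S phase was called in either direction. Of the 28 mitotic members 11 were called negative and 0 positive per the authors' deposited table, or 39.3%, where 2.90% of all 16288 tested genes were called negative. Their median log2 fold change was -1.20, all 28 were negative in sign, and 17 differed by more than 2-fold. Of the 13 S phase members 0 were called per the authors' deposited table. There 6.57% of all tested genes were called in either direction, and 3.67% of all tested genes were called positive. The S phase members had a median of -0.08, with 8 negative and 5 positive in sign and 0 past 2-fold. At an unadjusted p below 0.05 there were 23 negative mitotic genes and 3 negative S phase genes (Mcm5, Mcm7 and Tk1), where 9.41% of all tested genes were negative and 9.64% positive at that threshold. The median over all tested genes was -0.0044.

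All 42 genes were tested by the authors, so none was lost to their filter on low counts. The calls of the mitotic group depended on the scale of the test: when every statistic in the table was divided by the scaled median absolute deviation of all statistics (1.44), 0 of the 11 remained called. That step left 142 of the 1070 calls of the whole table, so the loss was not particular to the mitotic group. With Benjamini-Yekutieli adjustment 2 remained, Mki67 and Bub1b. When p was adjusted over every gene of the table, 8 remained, and Plk1, Kif20a and Nusap1 did not. With a count minimum of 10, Cdk1 and Aurkb were called as well, at adjusted p of 0.0453 and 0.0479. At these 4 settings, in that order, 0.325%, 0.964%, 1.09% and 3.54% of all genes were negative calls.

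**Figure D2:**
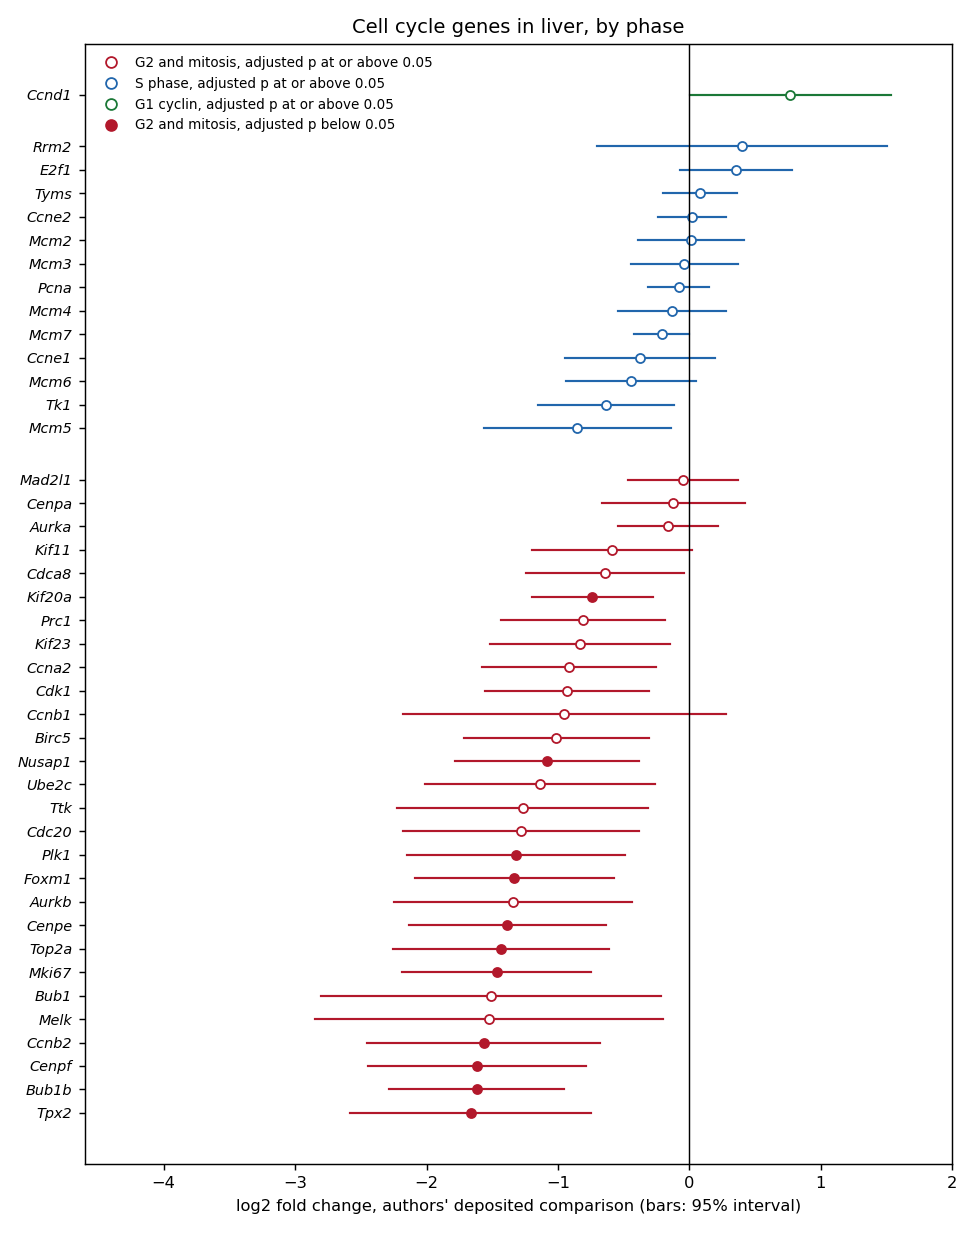
Log2 fold change of each of the 42 genes per the authors' deposited table (horizontal axis) with its 95% interval as a bar, genes in rows grouped by phase and ordered by value. Filled points are genes with an adjusted p below 0.05. All 28 mitotic genes lie left of 0 and 23 of their intervals stay below it, while 10 of the 13 S phase intervals include 0.

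The S phase genes were measured more tightly than the mitotic ones. Their median SE was 0.21 on the log2 scale, beside 0.37 for the mitotic genes, and their median mean normalized count was 81.2 beside 19.0. For 12 of the 13 S phase members the whole 95% interval lay above -1.20, the median of the mitotic group; the exception was Mcm5. Among all genes with a mean normalized count in the range of the mitotic members (4.06 to 116.6), 2.05% were called negative per the authors' deposited table. In the range of the S phase members (27.3 to 269.5), 2.09% were called negative and 4.15% positive. Over the range of counts that both groups share, 8 mitotic members had a median log2 fold change of -0.75 with 2 called, and 9 S phase members a median of -0.04 with 0 called. No test of the difference between the groups was made, because it needs values per library.

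Among the cyclins and their kinase, Ccnb2 was called. Cyclin B2, which activates CDK1 at the entry to mitosis, was at a log2 fold change of -1.57 ± 0.45 (SE, adjusted p = 0.0150), or 2.96-fold, per the authors' deposited table. Cdk1, the kinase that drives mitosis, was at -0.93 ± 0.32 and lay just outside the threshold there (adjusted p = 0.0517), next to Nusap1 just inside it (adjusted p = 0.0416). The S and G2 cyclin gene Ccna2 was at -0.92 ± 0.34 (adjusted p = 0.0806) per the authors' deposited table. Ccnb1 was at -0.95 ± 0.63 (adjusted p = 0.428) with a mean normalized count of 7.64 there. The 4 estimates lay between -1.57 and -0.92, and the interval of Ccnb1 alone among them reached above 0, at 0.28.

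Both genes of chromosome structure were called. Mki67 encodes the surfactant-like coat protein of mitotic chromosomes that is used as a marker of dividing cells. It was at -1.47 ± 0.37 (log2, SE, adjusted p = 0.00303) per the authors' deposited table, or 2.76-fold. Its mean normalized count of 116.6 was the highest of the mitotic group and the only one above 100. Top2a, the topoisomerase that untangles sister chromatids, was at -1.43 ± 0.42 (adjusted p = 0.0164) there. Mki67 (ENSMUSG00000031004) lies on chromosome 7 from 135689784 to 135716361 in GRCm38, on the minus strand.

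Of the transcription factor and kinase genes of mitosis, Foxm1 and Plk1 were called and Aurka and Melk were not. Foxm1, the activator of late cell cycle genes, was at -1.33 ± 0.39 (log2, SE, adjusted p = 0.0154) per the authors' deposited table. Plk1, a kinase of mitotic entry and spindle assembly, was at -1.32 ± 0.42 (adjusted p = 0.0348) there. Aurka, the kinase of spindle poles, was at -0.16 ± 0.19 (adjusted p = 0.714) per the authors' deposited table, with an interval from -0.54 to 0.22. Melk, a kinase gene with the lowest mean normalized count of the set (4.06), was at -1.53 ± 0.68 (adjusted p = 0.173) there.

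The spindle checkpoint holds chromosome separation until every kinetochore is attached. Its gene Bub1b, which encodes BUBR1, had the smallest p of the 42 genes, at -1.62 ± 0.34 (log2, SE, adjusted p = 0.000175), or 3.07-fold, per the authors' deposited table. Bub1b (ENSMUSG00000040084) lies on chromosome 2 from 118598211 to 118641591 in GRCm38, on the plus strand. The kinase genes Bub1 and Ttk were at -1.51 ± 0.66 (adjusted p = 0.165) and -1.27 ± 0.49 (adjusted p = 0.0975) there, with mean normalized counts of 5.13 and 6.66. Mad2l1, which encodes the checkpoint protein MAD2, was at -0.05 ± 0.21 (adjusted p = 0.938) per the authors' deposited table, the estimate closest to 0 among the mitotic members. Its interval from -0.47 to 0.37 does not meet that of Bub1b, which runs from -2.28 to -0.95, although both genes act in the same checkpoint. It does overlap those of Bub1 (-2.81 to -0.22) and Ttk (-2.23 to -0.31). Mad2l1 and Bub1b were set side by side after their values were seen.

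Of 3 genes of the centromere and kinetochore, 2 were called. Cenpf and Cenpe, a kinetochore protein and a kinetochore motor, were at -1.61 ± 0.42 (adjusted p = 0.00538) and -1.38 ± 0.38 (adjusted p = 0.00982) per the authors' deposited table (log2, SE). Cenpa, the histone H3 variant that marks centromeres, was at -0.12 ± 0.28 (adjusted p = 0.872) there. The chromosomal passenger complex, which corrects wrong attachments, had 0 of 3 genes called. Its kinase gene Aurkb was at -1.34 ± 0.46 (adjusted p = 0.0548), the survivin gene Birc5 at -1.01 ± 0.36 (adjusted p = 0.0665) and the borealin gene Cdca8 at -0.64 ± 0.31 (adjusted p = 0.224) per the authors' deposited table.

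Spindle and cytokinesis genes had 3 of 6 called. Tpx2, a spindle assembly factor, had the estimate furthest from 0 at -1.67 ± 0.47 (log2, SE, adjusted p = 0.0116), or 3.17-fold, per the authors' deposited table. Nusap1, a microtubule binding protein of the spindle, was at -1.08 ± 0.36 and Kif20a, a kinesin of the midzone, at -0.74 ± 0.24 (adjusted p = 0.0333) there. The kinesin genes Kif23 and Kif11 were at -0.83 ± 0.35 (adjusted p = 0.142) and -0.59 ± 0.31 (adjusted p = 0.288), and Prc1, which bundles midzone microtubules, at -0.81 ± 0.32 (adjusted p = 0.105) per the authors' deposited table. Cdc20 and Ube2c, the activator and the ubiquitin-conjugating enzyme of the anaphase-promoting complex, were at -1.28 ± 0.46 (adjusted p = 0.0685) and -1.14 ± 0.45 (adjusted p = 0.108) there. The intervals of the 6 spindle genes overlap, so no order among the spindle genes can be read from them.

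The MCM genes encode the 6 subunits of the replicative helicase, and none was called. Their log2 fold changes per the authors' deposited table ran from -0.85 ± 0.36 for Mcm5 (SE, adjusted p = 0.149) to 0.01 ± 0.20 for Mcm2 (adjusted p = 0.984). Mcm6 was at -0.44 ± 0.25, Mcm7 at -0.21 ± 0.11, Mcm4 at -0.13 ± 0.21 and Mcm3 at -0.04 ± 0.21 there (log2, SE). The intervals of Mcm5 and Mcm7 ended below 0, at -0.14 and -0.01, before adjustment over all genes.

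Pcna, the sliding clamp of DNA polymerases, was at -0.08 ± 0.12 (log2, SE, adjusted p = 0.780) per the authors' deposited table, and its interval ran from -0.31 to 0.15. Of the genes for DNA building blocks, the thymidine kinase gene Tk1 was at -0.63 ± 0.26 (adjusted p = 0.140) and the thymidylate synthase gene Tyms at 0.08 ± 0.14 (adjusted p = 0.834) there. Rrm2, the small subunit of ribonucleotide reductase, was at 0.40 ± 0.56 (adjusted p = 0.775), with the widest SE of the S phase group per the authors' deposited table. Its interval began at -0.71 and reached past a 2-fold difference on the positive side, so less can be read from it than from Pcna.

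The cyclin E genes, whose products start S phase with CDK2, were at -0.38 ± 0.29 for Ccne1 and 0.02 ± 0.13 for Ccne2 per the authors' deposited table (log2, SE). E2f1, which encodes the founding member of the E2F family, was at 0.35 ± 0.22 (adjusted p = 0.386) there. Ccnd1, the cyclin that growth factors induce in G1, was at 0.77 ± 0.39 (adjusted p = 0.258), the highest estimate of the 42 genes per the authors' deposited table. Its interval ran from 0.01 to 1.53. It was not called, and with E2f1, Rrm2, Tyms, Ccne2 and Mcm2 it made up the 6 members with a positive sign.

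Levels between genes were compared as the mean normalized count per kilobase of exon, with exon lengths from GENCODE M21. Rrm2 was highest at 97.2 per kilobase, followed by Pcna at 80.4, Ccnd1 at 72.6, Mcm7 at 43.1 and Tk1 at 35.9. Among mitotic genes Aurka was highest at 25.5, followed by Mki67 at 11.6 and Ccnb2 at 11.3, and Bub1 was lowest at 1.18. The median was 18.6 per kilobase for S phase members and 4.74 for mitotic members, beside 38.2 for all tested genes. No spread over livers can be given for these levels.

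Within the mitotic group the more abundant genes tended to have estimates nearer 0. Across the 28 genes the correlation of the log2 fold change with the log2 mean normalized count was 0.47 (Spearman 0.47), and with log2 exon length 0.098. With the log2 mean normalized count it was 0.25 (Spearman 0.14) across the 13 S phase members and 0.74 (Spearman 0.72) across all 42 members. These are correlations across genes from the same libraries, which are not independent replicates. Of the 5 mitotic members whose mean normalized count reached 50, Mki67 and Top2a were called and Aurka, Cenpa and Mad2l1 had estimates between -0.16 and -0.05. The 23 members below 50 had a median log2 fold change of -1.27. Of the members, 2 of 5 at or above 50 and 9 of 23 below it were called. Of mitotic genes outside the set, 14 at or above 50 had a median of -0.08, with 1 called negative, 1 called positive and 7 positive in sign. The 55 below it had a median of -0.74 with 11 called negative, where 2.90% of all tested genes were called negative and 3.67% positive. The value of 50 was chosen after the data were seen.

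**Figure D3:**
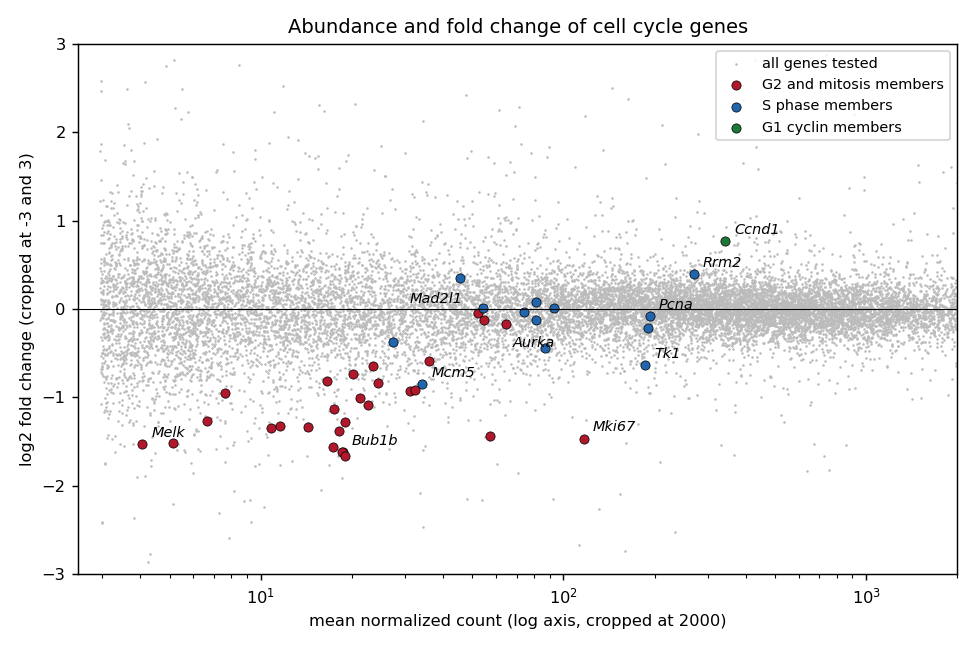
Log2 fold change (vertical axis, cropped at -3 and 3) against the mean normalized count (horizontal log axis, cropped at its right end) per the authors' deposited table, for all tested genes in grey and the 42 cell cycle genes in colour. Of the 28 mitotic genes 23 lie below 50 counts, and Mki67 is apart from the rest at 116.6 counts.

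The library kit was stranded per the labels, and the sources used here do not say whether counting took strand into account. In GENCODE M21, 14 of the 42 genes share exon sequence with another gene. Overlaps were not looked up for genes outside the 42, so the counts of the other lists carry no such check. For Cdc20 the overlapping gene on the other strand, Elovl1, had a mean normalized count of 589.1 beside 19.0, and for Kif20a the overlapping Cdc23 had 173.7 beside 20.2, so these estimates are uncertain. The same holds for Mcm7, which overlaps Cops6 (1663 counts), for Tk1, Ccne2, Ccnd1, Ccna2 and Prc1, and for Cdca8, whose overlapping gene 9930104L06Rik was itself called positive (adjusted p = 0.0356, authors' deposited table). The 18 mitotic members that share no exon had 6 called negative, among them Mki67 and Bub1b, and a median of -1.31. The 10 S phase members without such overlap had 0 called and a median of -0.06. Pcna, Tyms, Ccnb1 and Ccnb2 have annotated pseudogenes bearing their names, which could share reads.

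Further genes of the same phases were counted in the same way. Of 56 tested of 58 other S phase genes, 0 were called per the authors' deposited table, and the median was -0.11. There 6.57% of all tested genes were called in either direction. At an unadjusted p below 0.05, 7 were negative and 2 positive, beside 9.41% and 9.64% of all tested genes. The most abundant of them, the replication initiation gene Mcm10, was at 0.23 ± 0.27 (log2, SE, adjusted p = 0.703) there. By sign, 38 of these S phase genes were negative and 18 positive. Their estimates ran from -1.27 for Cdc6 (mean normalized count 3.88) to 0.55 for E2f8 (278.5). They were not split by abundance as the mitotic genes were, so the part of abundance in the contrast between phases was not tested. Of 69 tested of 72 other mitotic genes, 12 were called negative and 1 positive, with 60 negative in sign and a median of -0.63. The shares of all tested genes were 2.90% called negative and 3.67% called positive. Ect2, which triggers the cleavage furrow, was at -1.29 ± 0.26 (adjusted p = 6.14e-05) per the authors' deposited table. The positive call was the tubulin gene Tuba1c at 0.73 ± 0.15 (adjusted p = 0.000162) there. The estimates furthest from 0, chosen after their values were seen, were those of the chromokinesin gene Kif4 at -1.77 ± 0.43 and of Ckap2l at -1.76 ± 0.42 per the authors' deposited table.

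Of 14 G1 cyclins, CDKs and partners 0 were called, beside 6.57% of all tested genes called in either direction. Their median was 0.06, with estimates from -0.21 to 0.21. At an unadjusted p below 0.05, 1 was positive and 0 negative, beside the same shares of all genes. The most abundant, Ccng1, was at 0.21 ± 0.15 (log2, SE, adjusted p = 0.467) per the authors' deposited table. Of 24 tested genes of cell cycle brakes and the DREAM complex, 3 were called negative and 0 positive, with a median of -0.15. Of all tested genes 2.90% were called negative and 3.67% positive. At an unadjusted p below 0.05, 6 of the 24 were negative and 3 positive, beside 9.41% and 9.64% of all tested genes. Rbl2, which encodes the DREAM pocket protein p130, was at -0.45 ± 0.10 (adjusted p = 0.000276) per the authors' deposited table. The CDK inhibitor gene Cdkn2c was at -0.60 ± 0.19 and the E2F partner gene Tfdp2 at -0.45 ± 0.14 (both adjusted p = 0.0292) there.

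Of 30 tested growth factor and early response genes of liver regrowth, 2 were called positive and 3 negative, with a median of -0.12. Of all tested genes 3.67% were called positive and 2.90% negative. At an unadjusted p below 0.05, 3 of the 30 were positive and 4 negative, beside 9.64% and 9.41% of all tested genes. The matrix protein gene Ccn1 was at 1.23 ± 0.21 (log2, SE, adjusted p = 1.61e-06) and the stress factor gene Atf3 at 2.26 ± 0.58 (adjusted p = 0.00476) per the authors' deposited table. The negative calls were Igf1 at -0.33 ± 0.10, Il6ra at -0.44 ± 0.13 and Hbegf at -0.79 ± 0.26 there. These 3 were named after their values were seen.

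Fold changes differed little with the CHR motif over all genes. Over all tested genes with a promoter, the median log2 fold change was -0.0081 for 1736 genes with a CHR match and -0.0049 for 9776 without, and 3.11% and 2.91% were called negative per the authors' deposited table. Among mitotic members the median was -1.20 for 16 with a match and -1.08 for 7 without. Among other mitotic genes 9 of 36 with a match and 0 of 21 without were called negative, with medians of -0.73 and -0.47. For the E2F motif the medians were -0.33 for 4 S phase members with a match and 0.01 for 7 without, with 0 called in each. The pair of a CHR match and an NF-Y box was also counted over all tested genes with a promoter. Of 699 genes with the pair 4.72% were called negative, beside 2.82% of 10813 without it, with medians of -0.027 and -0.0039. The mitotic genes are among these genes.

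Markers of liver cell types were read beside the mitotic genes, since dividing cells can be of any type. Counts at an unadjusted p below 0.05, all of them negative, are given for each list and stand beside 9.41% of all tested genes. The called markers, all negative too, stand beside 2.90% of all tested genes called negative. All 11 Kupffer cell markers were negative in sign and 8 were below 0.05, with a median of -0.50 and 1 called (Timd4 at -0.76 ± 0.26, adjusted p = 0.0494, authors' deposited table). All 10 sinusoidal endothelial markers were negative and 3 were below 0.05, with a median of -0.40 and 1 called (Bmp2 at -0.72 ± 0.23 there). Of 12 hepatocyte markers 11 were negative in sign, 5 were below 0.05 and 4 were called, led by Tat at -1.53 ± 0.23 and Cps1 at -0.93 ± 0.15 per the authors' deposited table, with a median of -0.30.

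Blood cell markers had 0 called in every list, where 6.57% of all tested genes were called in either direction. In lists this short, 0 called says little. The median was -0.59 for 11 tested T and NK cell markers (9 negative in sign, 3 at an unadjusted p below 0.05), -0.30 for 7 B and plasma cell markers (5 negative, 0 below 0.05) and -0.08 for 10 monocyte and macrophage markers (5 negative, 1 below 0.05). It was -0.24 for 10 erythroid markers (7 negative, 1 below 0.05) and -0.63 for 12 markers of neutrophils and their precursors (9 negative, 2 below 0.05). The neutrophil list reached -2.78, with a median SE of 1.04. Summed mean normalized counts were 143.9 for T and NK cells, 163.5 for B and plasma cells and 5179 for erythroid cells. That of the neutrophil list was 43329, of which 41980 came from Lcn2, which hepatocytes also make. The markers Cd8b1, Mzb1, Gata1 and Rhag had mean normalized counts between 0.84 and 2.89 and no adjusted p. Stellate cell markers had a median of 0.05 (5 of 10 negative, 0 below 0.05) and tested cholangiocyte markers one of 0.33 (1 of 6 negative, 0 below 0.05), with 0 called in each. The part of any of these cell types in the difference of the mitotic genes was not tested.

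**Figure D4:**
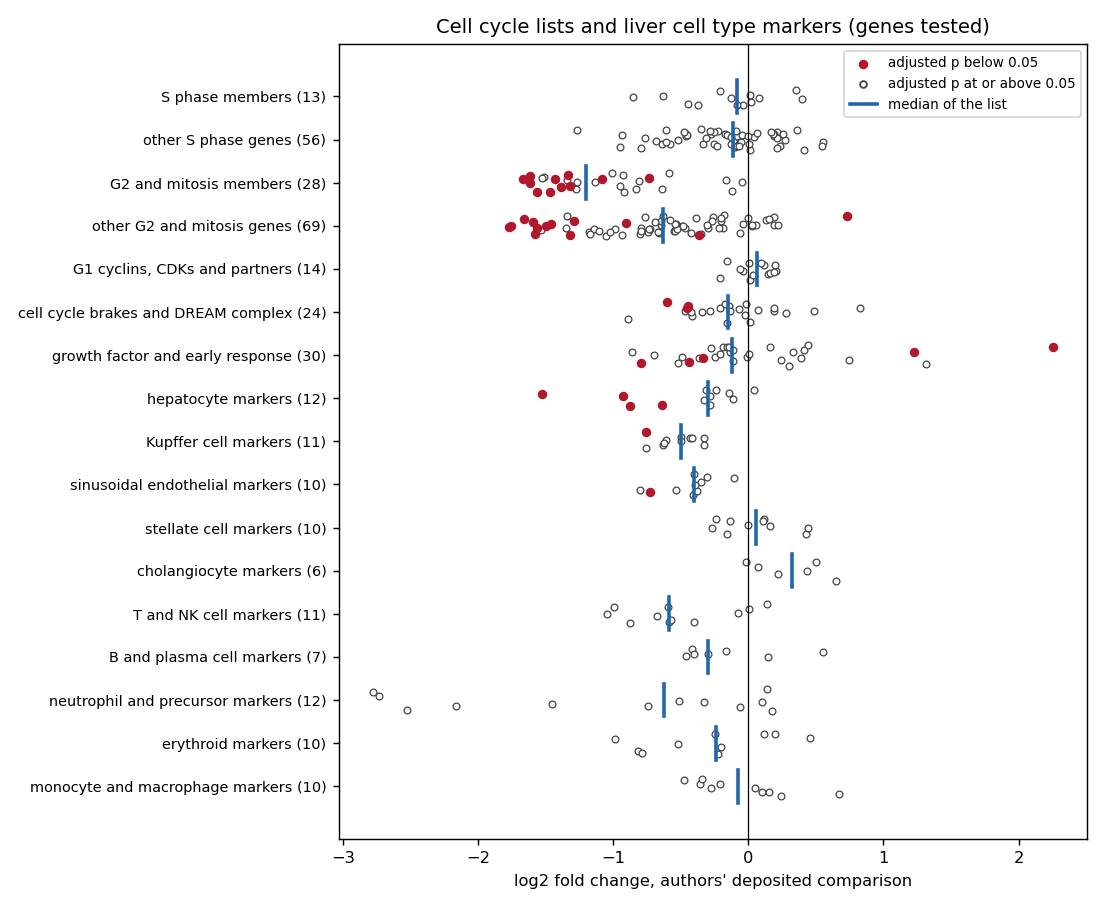
Log2 fold change per the authors' deposited table (horizontal axis) of every tested gene of the cell cycle lists and of the liver cell type markers (rows, with the number tested), with genes called in red and list medians as blue lines. The mitotic members have a median of -1.20 and the S phase members one of -0.08. Kupffer (-0.50) and sinusoidal endothelial (-0.40) markers lie between them. So do markers of neutrophils (-0.63), T and NK cells (-0.59), hepatocytes (-0.30), B and plasma cells (-0.30) and erythroid cells (-0.24).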

How the data were processed

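RNA sequencing was done on 16 livers in 4 groups of 4, from Trizol RNA and stranded mRNA libraries per the labels' protocols. The submitters' processing notes name FastQC, Trimmomatic, HISAT2, HTSeq 0.11.1 and GRCm38, without role or order. Per the file headers, the deposited table gives 1 comparison: a mean normalized count (a signal), a log2 fold change with SE on the log2 scale, a test statistic (a score), a p-value and an adjusted p-value. The sources used here name neither its model nor its samples and sides. Another 16 columns of library values match no label and were not used, so depth per sample is unknown and the planned edgeR fit of diet and DEN was not run.

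The deposited values were checked: the statistic is fold change over SE, and the adjusted p-value is Benjamini-Hochberg over 16288 genes, whose lowest mean normalized count was 2.949. No test of groups was added. Lists are described by counts and medians. The members and the 18 gene lists were chosen with earlier results of these data known. Named genes were the called members, the 6 most abundant, Ccnd1, Mki67, Pcna, Top2a and Cdk1, and per further list the 2 called genes with the smallest adjusted p or else the most abundant, with others marked in the text. The 42 members are all given. Exon lengths and positions came from GENCODE M21, promoters from RefSeq. Adjustments were tested on simulated data. Python 3.11.15, pandas 2.3.3 and scipy 1.17.1 were used. Alternatives were other thresholds, count minimums, adjustments, a scaled statistic and a fold minimum.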

Additional observations from a re-analysis of the deposited data

How the results depend on the processing

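The 11 called members, which are all mitotic, became 4 at an adjusted p below 0.01, 17 at 0.10, 2 with Benjamini-Yekutieli adjustment and 0 with the scaled statistic, and the counts for the mitotic group alone were the same. They were 8 over every gene of the table, 13 with a count minimum of 10 and 11 with a minimum of 1.5-fold. At these settings, in that order, 1.09%, 3.54% and 1.38% of all genes were negative calls. Of all genes tested, 1.26%, 4.43%, 0.964% and 0.325% were negative calls at 0.01, at 0.10, with Benjamini-Yekutieli and with the scaled statistic. With a count minimum of 100 the members' count was 1, because a single mitotic member is that abundant, and 4.07% of all genes were negative calls. The 13 other mitotic genes called became 5 at 0.01, 5 with Benjamini-Yekutieli, 8 and 3 with count minimums of 10 and 100, and 0 with the scaled statistic. The 1 positive call is in each of these counts except the last, and the same shares of all genes stand beside the negative ones. The 0 other S phase genes called became 2 at 0.10. The S phase members had 0 called at 0.10 and with a count minimum of 10. The other alternatives are stricter or tested only 4 of the 13, so their 0 says nothing about stability. Across the table the scaled statistic left 142 of 1070 calls. No value changed sign, since every alternative uses the authors' fold changes.

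No paired analysis was possible because the library columns carry no sample label. For the same reason the DESeq2 fit, the fit without a count filter, the replicate block and leaving out each replicate were not run. Of the 28 mitotic members, 27 had a mean normalized count under 100.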
